A study of Homo sapiens with 12 samples.

Results

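The 10 genes described here move iron through the cell: CYBRD1, TFRC, STEAP3 and SLC11A2 act in uptake, FTH1, FTL and NCOA4 in storage and release, SLC40A1 in export, and IREB2 and ACO1 in control. They were taken by symbol from a matrix of raw gene counts with 45478 genes. The set was chosen with the data in view, because CYBRD1 was off in both parental groups and on in both resistant groups, so the contrasts of CYBRD1 between resistant and parental cells are given as values with no test. RNA sequencing of poly(A) RNA was done in 12 libraries of clear cell renal cell carcinoma (ccRCC) cell lines, 3 in each of 4 groups. A498 and 786-O are established human ccRCC lines, both long known to lack a working VHL gene. The resistant cultures had grown under sunitinib, an oral inhibitor of receptor tyrosine kinases, for 4 months or more than 20 passages. They grew to confluence at 4 μM (from 786-O) or 2 μM (from A498), and the parental groups were not selected. The selected lines are called resistant 786-O and resistant A498, and 786-O and A498 alone mean the parental cells. The titles of all 12 libraries carry the code veh, which the labels do not explain, and no other label names a treatment at harvest. Each resistant line is 1 selected culture, so its 3 libraries speak for that culture. The labels do not say that replicates came from separate cultures, and p-values therefore measure the spread between libraries only. The batch label differs for every group, and batch cannot be told apart from group.

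Totals ran from 20042519 to 47972092 counts, and both 786-O groups were deeper than both A498 groups. The libraries labelled resistant A498 stood nearer to the 786-O line than to A498. The median Pearson r of log2(CPM + 1) (CPM, counts scaled to a common library size) with resistant A498 libraries was 0.918 for A498, 0.967 for 786-O and 0.989 for resistant 786-O. HIF1A had 6718 to 10747 counts in A498 but 176 to 238 in libraries labelled resistant A498, and 786-O held 421 to 452. Over 61 genes at 10 CPM or more in A498 and at most 3 counts in each 786-O library, resistant A498 held a median of 0.354% of the A498 level. Over 26 genes chosen the other way round, high in 786-O and low in A498, it held a median of 79.9% of the 786-O level. The libraries labelled resistant A498 are therefore compared with A498, as labelled, and with 786-O, and which parent they stand against is named with every change. Replicate 2 of resistant 786-O stood apart from the other resistant 786-O libraries, and the median coefficient of variation was 7.81% in resistant 786-O against 2.62% to 3.71% elsewhere. Of 10 renal carcinoma markers, 9 or 10 reached a group mean of 1 CPM in each group, and CA9 was at or near 0 outside A498. None of 10 T cell markers and none of 6 erythroid markers reached 1 CPM in any group, and at most 1 of 5 macrophage markers did.

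Cells take up iron mainly as transferrin bound to transferrin receptor 1, the product of TFRC. In the endosome STEAP3 reduces ferric to ferrous iron, and the transporter encoded by SLC11A2 (DMT1) carries it into the cytosol. CYBRD1 encodes duodenal cytochrome b, a membrane reductase that uses ascorbate and is best known at the brush border of the gut. Iron not used at once is held inside the ferritin shell of FTH1 and FTL chains. NCOA4 delivers ferritin to the lysosome for breakdown, and SLC40A1 encodes ferroportin, the only known iron exporter of mammalian cells. The iron regulatory proteins encoded by ACO1 (IRP1, which is also the cytosolic aconitase) and IREB2 (IRP2) bind hairpins called iron-responsive elements when iron is low. Bound in a 5′ untranslated region they block translation, and bound in the 3′ untranslated region of TFRC they protect the transcript from decay. Kidney tubule cells reclaim filtered iron, and in the gut HIF-2α, the product of EPAS1, is a known inducer of CYBRD1, SLC11A2 and SLC40A1.

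The hairpins found by a fixed pattern are shown, and a transcript without a match may still hold a hairpin. The search asked for a C bulge, an upper stem of 5 pairs and at least 4 of 5 lower stem pairs. The loop was CAGTGN, where N was A, C or T. An unpaired base on the 3′ side of the upper stem was allowed, and the matches of SLC11A2 and EPAS1 have it. The sense strand of spliced transcripts was searched (GENCODE, GRCh38). Capitals mark the loop, and each line is written 5′ to 3′ with T for U.
FTH1: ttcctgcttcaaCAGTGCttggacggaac
FTL: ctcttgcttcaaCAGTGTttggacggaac
SLC40A1: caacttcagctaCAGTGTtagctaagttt
SLC11A2: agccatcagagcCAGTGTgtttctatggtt
TFRC, the first: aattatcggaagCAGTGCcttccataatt
TFRC, the second: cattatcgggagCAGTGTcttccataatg
TFRC, the third: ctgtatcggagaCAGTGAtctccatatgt
TFRC, the fourth: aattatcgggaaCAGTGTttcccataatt

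The matches of FTH1 (chr11:61967574-61967602, minus strand), FTL (chr19:48965335-48965363, plus strand) and SLC40A1 (chr2:189580661-189580689, minus strand) lay in the 5′ untranslated region. Those of TFRC lay in its 3′ untranslated region, between chr3:196050463-196050491 and chr3:196050979-196051007 on the minus strand, and that of SLC11A2 (chr12:50988268-50988297, minus strand) did likewise. No match to this pattern was found in CYBRD1, STEAP3, IREB2, ACO1 or NCOA4. Over 20046 canonical protein-coding transcripts, 0.0399% held a match in the 5′ and 0.16% in the 3′ untranslated region. The count table measures transcript, so translation under the 5′ hairpins was not measured here.

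CYBRD1 (ENSG00000071967.12, chr2:171522247-171558129, plus strand, GRCh38) was not detected in parental 786-O and was close to 0 in parental A498. The 3 libraries of 786-O held 0 counts each, and the A498 libraries held 0, 3 and 1. In resistant 786-O it stood at 13.1, 9.71 and 11.4 CPM (642, 424 and 523 counts), scaled by TMM (trimmed mean of M values) as are all CPM below. In resistant A498 it stood at 9.66, 9.38 and 9.19 CPM (259, 196 and 235 counts). Every resistant library was thus far above every parental library. Against a floor of 3 counts per library, the resistant 786-O mean of 11.4 ± 1.70 CPM (SD, n = 3) was at least 154-fold higher than 786-O, and the resistant A498 mean of 9.41 ± 0.232 CPM at least 127-fold. Against A498, the summed 690 counts of resistant A498 compared with 4 gave a ratio of 196, with an exact 95% interval of 76.2 to 721 that covers counting error only. These values are what the set was chosen on and carry no test. Whether more cells held CYBRD1 transcript or each cell held more cannot be told apart in bulk RNA.

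The level reached in the resistant lines was modest. Per kilobase of canonical transcript CYBRD1 stood at 2.70 CPM in resistant 786-O and 2.22 CPM in resistant A498, and in resistant 786-O SLC11A2 stood at 10.2 and TFRC at 138 CPM on that scale. Between the resistant groups, a contrast that the choice of genes did not use, the log2 difference of CYBRD1 was −0.28 (resistant A498 minus resistant 786-O, SE 0.14, 95% interval −0.59 to 0.03), with an adjusted p of 0.126 in edgeR's quasi-likelihood test. The libraries did not overlap, although 9.71 CPM in resistant 786-O replicate 2 lay just above the highest resistant A498 library. Without that replicate the difference was −0.38 (SE 0.099, adjusted p = 0.00142), so 1 library decided this call. Of 21601 genes with at most 3 counts in all 6 parental libraries, 9 had means of 1 CPM or more in both resistant groups, and CYBRD1 alone had 5 CPM or more in both.

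The promoters of CYBRD1 and SLC40A1 are printed because these were the members with the largest differences between resistant and parental cells. Each is the 250 bases before the transcript start (RefSeq, GRCh38.p14), and for CYBRD1 the first of 2 listed starts. Capitals mark TATAAA and GGGCGG on either strand.
CYBRD1, chr2:171521983-171522232, plus strand: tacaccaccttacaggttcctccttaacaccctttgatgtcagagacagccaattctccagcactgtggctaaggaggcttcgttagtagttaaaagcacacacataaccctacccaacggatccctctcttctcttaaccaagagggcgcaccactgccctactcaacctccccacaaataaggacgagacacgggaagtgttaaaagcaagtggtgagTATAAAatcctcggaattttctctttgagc
SLC40A1, chr2:189580787-189581036, minus strand: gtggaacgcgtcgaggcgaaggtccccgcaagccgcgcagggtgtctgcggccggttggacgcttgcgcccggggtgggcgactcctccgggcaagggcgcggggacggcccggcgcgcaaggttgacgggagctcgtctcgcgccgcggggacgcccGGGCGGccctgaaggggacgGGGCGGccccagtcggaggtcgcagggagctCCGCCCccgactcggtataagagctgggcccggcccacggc

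The windows differed in composition. That of CYBRD1 was 47.6% G and C with 6 CpG dinucleotides and 1 match to TATAAA, which 11.1% of 27305 promoters of the same length hold. That of SLC40A1 was 77.2% G and C with 38 CpG dinucleotides and 3 matches to GGGCGG, held by 42.3% of promoters, beside medians of 58% and 11 CpG over all promoters. Neither window held the hypoxia response cores ACGTG or GCGTG (18.7% and 31.9% of promoters) or the antioxidant response core TGANNNNGC (35.4%), searched on both strands with overlaps counted. The second listed CYBRD1 start had 1 match to GCGTG and 1 to GGGCGG.

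Genes around CYBRD1 did not share its pattern. Of 11 genes annotated within 500 kb, 8 were tested (TLK1, METTL8, DCAF17, RPS15P4, DYNC1I2, SLC25A12, HAT1 and METAP1D). In resistant 786-O minus 786-O, 1 of the 8 rose and 6 fell, with log2 changes from −0.75 for METTL8 to 0.32 for METAP1D. In resistant A498 minus 786-O, 1 rose and 3 fell, from −0.75 to 0.17, and in resistant A498 minus A498, 1 rose and 2 fell, from −0.81 to 0.10. Of all tested genes 35% rose and 33.5% fell in the first of these comparisons. The shares were 31.6% and 32.1% in the second and 36.3% and 36.4% in the third. With so few neighbours these counts are no result about the locus. The nearest tested gene, the pseudogene RPS15P4 at −4.53 kb, fell by 0.48 in resistant 786-O (SE 0.11, adjusted p = 0.00134, edgeR's quasi-likelihood test). It can share reads with other copies of its parent gene.

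**Figure D1:**
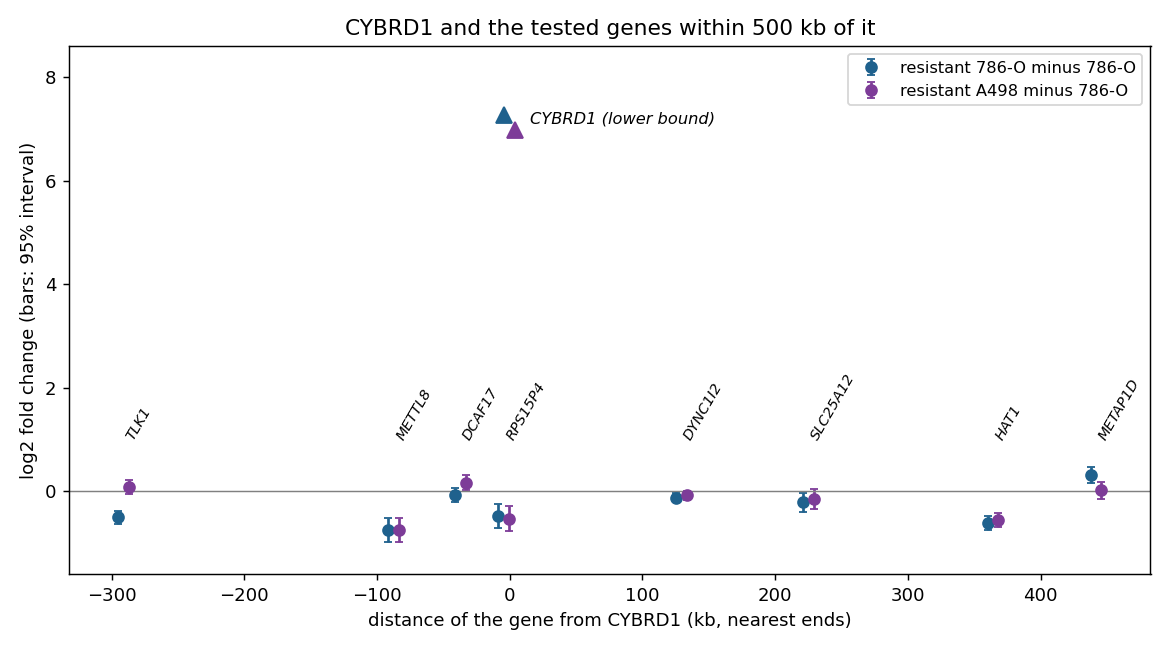
Log2 fold change of the 8 tested genes within 500 kb of CYBRD1 against their distance from it in kb, in resistant 786-O minus 786-O (blue) and resistant A498 minus 786-O (purple), with 95% intervals as bars. Triangles give the lower bounds of the CYBRD1 change, 7.26 and 6.98 on the log2 scale, while the neighbours lie between −0.75 and 0.32.

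Genes whose levels were most like those of CYBRD1 included DHRS2, ICA1, VWDE, TDRD7 and CTIF. Likeness was measured by Pearson r of log2 CPM over the 12 libraries, which form 4 groups, so r mostly restates the group means. DHRS2, a short-chain dehydrogenase, had the highest r, 0.997, with 31.3 CPM in resistant 786-O and 27.3 in resistant A498 against 0.330 in 786-O and 0.631 in A498. TDRD7, by contrast, was well expressed in parental cells, at 64.0 CPM in 786-O and 154 in resistant 786-O, with r = 0.990. Of 12857 genes compared, 174 had r over 0.95, and SLC40A1 stood at rank 429 with r = 0.910.

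The remaining 9 members all passed the filter on low counts and were tested. SLC40A1 passed it only through the resistant libraries, so its calls against parental cells are listed but carry no support. In resistant 786-O minus 786-O, 5 rose (FTH1, FTL, SLC40A1, IREB2 and NCOA4), 2 fell (TFRC and SLC11A2) and 2 passed no test (STEAP3 and ACO1), 77.8% called where 68.5% of all 19929 tested genes were (35% higher, 33.5% lower). Against A498, resistant A498 had 5 that rose (TFRC, SLC40A1, STEAP3, IREB2 and NCOA4) and 4 that fell (FTH1, FTL, SLC11A2 and ACO1), with a background of 72.7% (36.3% higher, 36.4% lower). Against 786-O, resistant A498 had 5 that rose (FTH1, FTL, SLC40A1, IREB2 and NCOA4), 3 that fell (TFRC, STEAP3 and ACO1) and SLC11A2 was not called, against 63.6% (31.6% higher, 32.1% lower). The libraries of the compared groups did not overlap at 8, 9 and 9 of the 9 members in turn, where 68.9%, 78.5% and 73.4% of all tested genes did not. With backgrounds this high the number of members called is no result in itself. The median log2 change of the 9 was 0.15, 0.26 and 0.15 in the order given, beside 0.033, −0.0041 and 0.0029 over all tested genes. The 2 comparisons with 786-O share the same control libraries, and both resistant A498 comparisons share the same resistant A498 libraries. SLC40A1 was the only member beyond 2-fold in resistant 786-O minus 786-O and in resistant A498 minus 786-O, and it and ACO1 were so in resistant A498 minus A498, where 22%, 20% and 30.8% of all tested genes were.

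**Figure D2:**
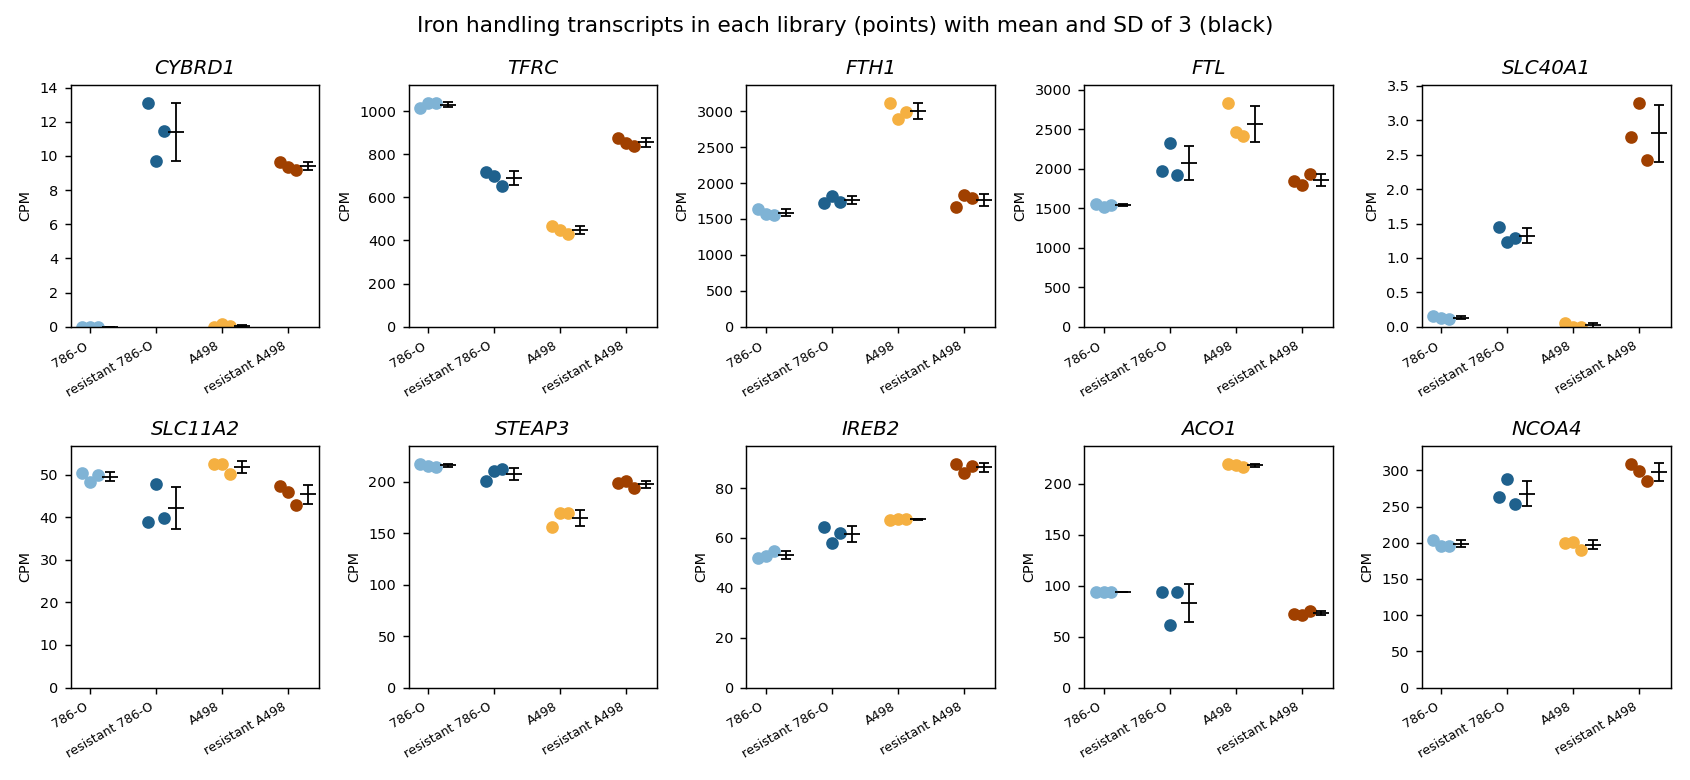
CPM (TMM-scaled) of the 10 members in each of the 12 libraries, 1 panel per gene with an axis from 0, points for libraries and black bars for the mean and SD of 3. CYBRD1 and SLC40A1 lie at or near 0 in both parental groups, and TFRC, FTH1, FTL and ACO1 differ more between A498 and 786-O than between 786-O and resistant 786-O.

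SLC40A1 was the second member that was close to silent in parental cells and present in both resistant lines. The 786-O libraries held 6, 5 and 5 counts (0.158, 0.129 and 0.111 CPM) and the A498 libraries 2, 0 and 0. In resistant 786-O it stood at 1.45, 1.24 and 1.29 CPM, and in resistant A498 at 2.76, 3.25 and 2.43 CPM. No resistant library overlapped any parental library, yet these are the lowest levels among the members, 0.398 and 0.845 CPM per kilobase in resistant 786-O and resistant A498. Because SLC40A1 passed the filter on low counts only through the resistant libraries, its changes against parental cells are given without p-values. The log2 change was 3.30 (SE 0.29), 9.85-fold, in resistant 786-O minus 786-O. It was 4.37 (SE 0.28), 20.7-fold, in resistant A498 minus 786-O. Against A498 the summed 204 counts of resistant A498 compared with 2 gave a ratio of 116 (exact 95% interval 31.7 to 963, counting error only). Resistant A498 also lay above resistant 786-O, by 1.07 on the log2 scale (SE 0.19, adjusted p = 0.000378, edgeR's quasi-likelihood test), with no overlap.

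Of the members of the transferrin route, TFRC moved in opposite directions in the labelled pairs. It stood at 1015, 1038 and 1035 CPM in 786-O and at 717, 699 and 653 CPM in resistant 786-O. It stood at 468, 450 and 432 CPM in A498 and at 876, 850 and 837 CPM in resistant A498. The 4 groups did not overlap, and their order was 786-O, resistant A498, resistant 786-O, A498 from the highest. TFRC changed by −0.58 on the log2 scale in resistant 786-O minus 786-O (SE 0.046, adjusted p = 3.57e-08) and 0.92 in resistant A498 minus A498 (SE 0.046, adjusted p = 9.95e-11). Set against 786-O, resistant A498 was lower by 0.27 (log2 change −0.27, SE 0.046, adjusted p = 0.000109). Parental 786-O was above A498 by 1.19 (SE 0.046, adjusted p = 4.12e-12), so the reference group set the direction of the resistant A498 value.

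STEAP3, the endosomal reductase, differed less. Its mean was 216 ± 1.61 CPM for 786-O and 207 ± 6.23 CPM for resistant 786-O (SD, n = 3). For A498 it was 165 ± 8.01 CPM, lower than the 198 ± 3.39 CPM of resistant A498. The resistant 786-O libraries (200, 210 and 212 CPM) all lay below the 786-O libraries (217, 216 and 214 CPM), but the log2 difference of −0.06 (95% interval −0.15 to 0.04) did not pass the test (adjusted p = 0.266). The rise in resistant A498 minus A498 was 0.26 (SE 0.045, adjusted p = 8.33e-05). The fall in resistant A498 minus 786-O was −0.13 (adjusted p = 0.0213), and when library size alone set the scale it was 0.02 with the opposite sign (adjusted p = 0.637). The call was also lost with DESeq2 (adjusted p = 0.0875), with no filter (0.0653), with at least 10 counts asked of every library (0.103), and without 786-O replicate 1 (0.0547) or any 1 of the resistant A498 libraries (0.0949 to 0.175). Library size scaling moves the median change of all genes by 0.15 in this comparison and by 0.14 in resistant 786-O minus 786-O.

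SLC11A2 had similar levels in all groups. It stood at 50.3, 48.3 and 49.8 CPM in 786-O and at 38.8, 47.8 and 39.8 CPM in resistant 786-O, where replicate 2 lay next to the parental range. In A498 it stood at 52.5, 52.6 and 50.1 CPM, and in resistant A498 at 47.3, 45.9 and 43.0 CPM. The log2 change was −0.23 (SE 0.07, adjusted p = 0.00798) in resistant 786-O minus 786-O and −0.19 (SE 0.072, adjusted p = 0.0282) in resistant A498 minus A498. Neither call held when library size alone set the scale (−0.09 at an adjusted p of 0.238, and −0.12 at 0.13). The call in resistant 786-O was −0.34 (adjusted p = 1.19e-07) without resistant 786-O replicate 2, and was lost without resistant 786-O replicate 1 (−0.15, adjusted p = 0.075) or 3 (−0.17, adjusted p = 0.0603). In resistant A498 minus A498 it was lost in 5 of the 6 fits that left out 1 library of A498 or resistant A498. In resistant A498 minus 786-O the difference was −0.13 (95% interval −0.28 to 0.03, adjusted p = 0.138).

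The ferritin chains moved together in direction, and again in opposite directions in the labelled pairs. FTH1, the heavy chain with ferroxidase activity, stood at 1645, 1564 and 1557 CPM in 786-O and at 1726, 1821 and 1737 CPM in resistant 786-O. It stood at 3116, 2891 and 2988 CPM in A498 and at 1666, 1829 and 1795 CPM in resistant A498. A498 thus stood above all other groups, which lay within 1557 to 1829 CPM. The log2 change was 0.15 in resistant 786-O minus 786-O (SE 0.048, adjusted p = 0.012), 0.15 in resistant A498 minus 786-O (SE 0.048, adjusted p = 0.0123) and −0.77 in resistant A498 minus A498 (SE 0.048, adjusted p = 1.32e-09). Both changes against 786-O were near the threshold: without 786-O replicate 2 or 3 the adjusted p lay between 0.0527 and 0.0577. Between resistant A498 and resistant 786-O the difference was 0.00 (95% interval −0.10 to 0.10).

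FTL, the light chain, stood at 1549, 1520 and 1544 CPM in 786-O and at 1967, 2323 and 1925 CPM in resistant 786-O. It stood at 2833, 2464 and 2412 CPM in A498 and at 1839, 1792 and 1939 CPM in resistant A498. The 786-O libraries were the lowest and the A498 libraries the highest. FTL changed by 0.43 on the log2 scale in resistant 786-O minus 786-O (SE 0.071, adjusted p = 7.8e-05), 0.27 in resistant A498 minus 786-O (SE 0.071, adjusted p = 0.0037) and −0.47 in resistant A498 minus A498 (SE 0.071, adjusted p = 2.68e-05). Per kilobase, the ferritin chains were the most abundant of the members in every group, at 1465 CPM for FTH1 and 2379 CPM for FTL in resistant 786-O. Both genes have many processed copies, and their reads may be split or shared: 20 FTH1 pseudogenes held 0.796% to 1.57% of the FTH1 counts, and 10 FTL pseudogenes held 0.136% to 0.343% of the FTL counts.

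NCOA4, the cargo receptor for ferritin breakdown, rose against every reference. It stood at 204, 196 and 196 CPM in 786-O and at 263, 288 and 253 CPM in resistant 786-O. It stood at 200, 202 and 190 CPM in A498 and at 310, 300 and 285 CPM in resistant A498. Both parental groups shared 1 range and all 6 resistant libraries lay above it. On the log2 scale NCOA4 rose by 0.43 in resistant 786-O minus 786-O (SE 0.052, adjusted p = 3.13e-06), 0.58 in resistant A498 minus 786-O (SE 0.052, adjusted p = 1.43e-07) and 0.60 in resistant A498 minus A498 (SE 0.052, adjusted p = 6.91e-08). The parental lines differed by 0.01 (786-O minus A498, 95% interval −0.10 to 0.12), so this result did not turn on the parental group used. The difference between the changes in the labelled pairs was 0.16 (95% interval 0.01 to 0.32, adjusted p = 0.0616).

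The iron regulatory proteins did not move alike. IREB2 stood at 52.0, 52.8 and 55.0 CPM in 786-O and at 64.6, 58.2 and 62.1 CPM in resistant 786-O. It stood at 67.3, 67.5 and 67.8 CPM in A498 and at 89.8, 86.2 and 88.8 CPM in resistant A498. The 4 groups did not overlap. IREB2 rose by 0.21 on the log2 scale in resistant 786-O minus 786-O (SE 0.048, adjusted p = 0.00123), 0.73 in resistant A498 minus 786-O (SE 0.049, adjusted p = 5.81e-09) and 0.39 in resistant A498 minus A498 (SE 0.049, adjusted p = 3.63e-06). IREB2 was also higher in resistant A498 than in resistant 786-O, by 0.52 (SE 0.048, adjusted p = 1.01e-06).

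ACO1 set A498 apart from the other groups. It stood at 220, 218 and 217 CPM in A498 and at 72.3, 71.6 and 75.2 CPM in resistant A498. It stood at 94.2, 93.8 and 93.9 CPM in 786-O and at 93.4, 61.4 and 93.9 CPM in resistant 786-O, where replicate 2 alone was low. ACO1 changed by −1.58 on the log2 scale in resistant A498 minus A498 (SE 0.11, adjusted p = 6.79e-09) and −0.36 in resistant A498 minus 786-O (SE 0.11, adjusted p = 0.0108). The latter was not called when library size alone set the scale (−0.21, adjusted p = 0.124). In resistant 786-O minus 786-O the difference was −0.18 (95% interval −0.42 to 0.06, adjusted p = 0.161), and without replicate 2 it was −0.01 (adjusted p = 0.88). Parental 786-O was below A498 by 1.22 on the log2 scale (log2 difference −1.22, SE 0.11, adjusted p = 9.05e-08).

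**Figure D3:**
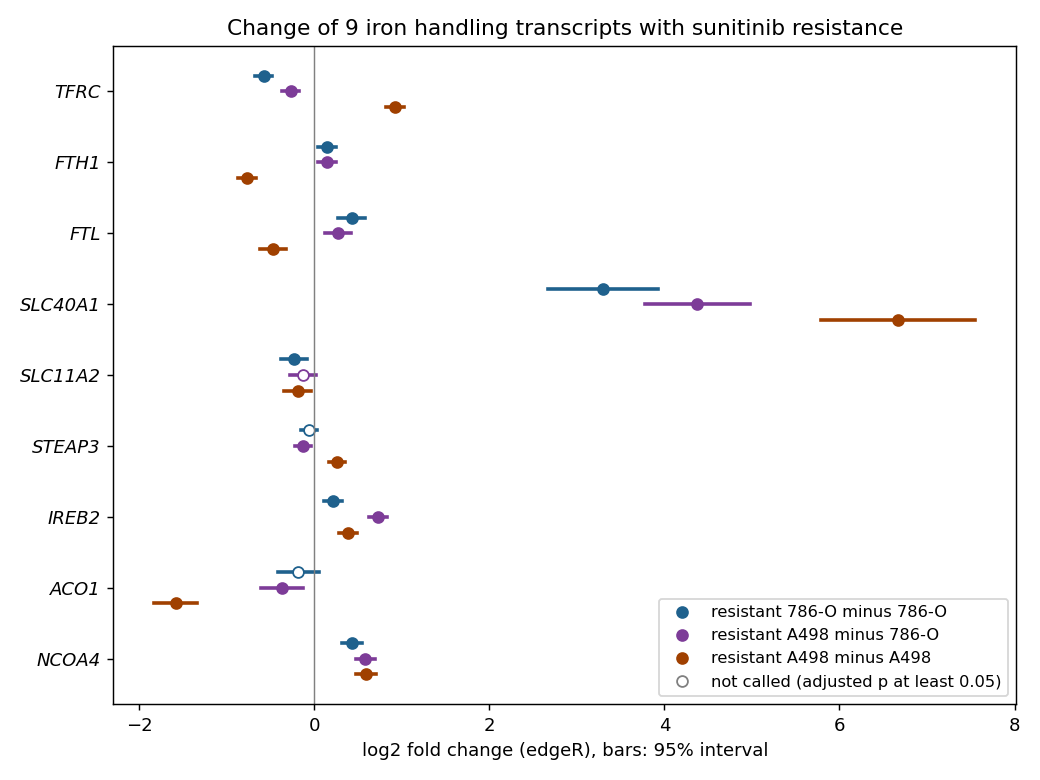
Log2 fold change of the 9 tested members with 95% intervals, in resistant 786-O minus 786-O (blue), resistant A498 minus 786-O (purple) and resistant A498 minus A498 (brown), open points not called. NCOA4, IREB2 and SLC40A1 lie above 0 in all 3 comparisons, TFRC and both ferritin chains change sign between the blue and brown points, and the brown SLC40A1 point rests on 2 counts in A498.

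The parental lines themselves differed at 7 of the 9 members, against a background of 74.2% (38.2% higher and 36.1% lower in 786-O), and 7 members did not overlap, as for 80.2% of genes. TFRC, SLC40A1 and STEAP3 were higher in 786-O, and FTH1, FTL, IREB2 and ACO1 were higher in A498. Of these, TFRC, SLC40A1 and ACO1 were beyond 2-fold (background 31.9%), and the SLC40A1 value compares 5 or 6 counts with 0 to 2. SLC40A1 was tested only because of its resistant libraries. Its call between the parental lines was lost without A498 replicate 3 (adjusted p = 0.0578, edgeR's quasi-likelihood test). Between the resistant groups 4 members were called (TFRC, SLC40A1, IREB2 and NCOA4, all higher in resistant A498) and 5 were not, 44.4% against a background of 46.1% (23% in each direction). Their libraries did not overlap at 3 members, against 51.7% of genes. For ACO1 and SLC11A2 this depended on resistant 786-O replicate 2: without it ACO1 was lower in resistant A498 by 0.36 on the log2 scale (log2 difference −0.36, adjusted p = 2.38e-09), and SLC11A2 was higher by 0.21 (adjusted p = 0.000615).

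The wider pathway was described with 68 further genes grouped by role, of which 67 were in the table and 58 passed the filter on low counts. In resistant 786-O minus 786-O, 18 rose and 22 fell, where 35% of all tested genes rose and 33.5% fell. Set against 786-O, 17 rose and 26 fell in resistant A498, beside 31.6% and 32.1% of all tested genes. Against A498, 18 rose and 28 fell in resistant A498, beside 36.3% and 36.4%. In that order 40, 43 and 46 of the 58 were called and 12, 8 and 14 of them were beyond 2-fold, so changes went both ways. With these backgrounds the counts are no result about the list. The medians over the 58 genes were −0.11, −0.11 and −0.23. The hepatic hormone gene HAMP, HJV, transferrin (TF) and the erythroid haem enzyme ALAS2 were among the 9 genes too low to test.

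In uptake and reduction, 4 of 13 tested genes rose and 4 fell in resistant 786-O minus 786-O, where 35% of all tested genes rose and 33.5% fell. In resistant A498 minus 786-O, 4 rose and 6 fell (background 31.6% and 32.1%). In resistant A498 minus A498, 1 rose and 9 fell (background 36.3% and 36.4%). SLC39A14 and SLC39A8, zinc transporters that also carry ferrous iron, fell by 0.37 and 0.57 in resistant 786-O and by 0.34 and 0.58 in resistant A498 minus 786-O. STEAP2, a metalloreductase related to STEAP3, rose by 1.13 in resistant 786-O and 1.17 in resistant A498 minus 786-O, from 2.07 ± 0.080 CPM to 4.55 ± 0.518 and 4.68 ± 0.240 CPM. Against A498 the signs of SLC39A8 and STEAP2 turned: in resistant A498 SLC39A8 rose by 0.64 (adjusted p = 1.32e-06) and STEAP2 changed by −0.64 (adjusted p = 6.3e-05), while SLC39A14 was lower there too (−0.54). SLC22A17, a receptor for lipocalin 2, had 6 counts in all in 786-O against 163 in resistant 786-O, a ratio of 23.9 (exact 95% interval 10.7 to 66.1, counting error only). In A498 it was higher, at 13.3 ± 1.33 CPM, and resistant A498 minus A498 was −3.64 (SE 0.18, adjusted p = 9.43e-11).

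In mitochondrial iron and iron-sulfur cluster synthesis, 8 of 12 genes fell and 2 rose in resistant 786-O minus 786-O, with a median of −0.32, where 33.5% of all tested genes fell and 35% rose and the median of all was 0.033. The co-chaperone HSCB (−0.86) and the glutaredoxin GLRX5 (−0.72) fell, while the importer SLC25A28, mitoferrin 2, rose by 0.59. Set against 786-O, 6 fell and 3 rose in resistant A498 (background 32.1% and 31.6%). Set against A498, 7 rose and 4 fell in it (background 36.3% and 36.4%), with GLRX5 at 0.44, the opposite sign from its change with the other reference. SLC25A28 rose in that comparison too, by 0.65 (SE 0.079, adjusted p = 2.85e-06).

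Of 15 haem genes, 6 rose and 5 fell in resistant 786-O minus 786-O, where 35% of all tested genes rose and 33.5% fell. In resistant A498 minus 786-O, 4 rose and 8 fell (background 31.6% and 32.1%). In resistant A498 minus A498, 4 rose and 10 fell (background 36.3% and 36.4%). SLC48A1, which carries haem out of the lysosome, rose by 1.34 in resistant 786-O and 1.58 in resistant A498 minus 786-O. BLVRB, biliverdin reductase B, rose by 1.25 and 0.79, and ALAD, an early enzyme of haem synthesis, by 1.05 and 1.16. HMOX2, the constitutive haem oxygenase, fell by 0.80 and 0.83. Against A498, SLC48A1 and BLVRB fell in resistant A498 (−0.84 and −1.40), ALAD rose (0.29) and HMOX2 fell (−1.03).

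Among the genes of storage and ferritin turnover, PCBP2 and PCBP1, chaperones that load iron into ferritin, fell in resistant 786-O minus 786-O by 1.14 and 0.21, and TAX1BP1, an autophagy receptor that works with NCOA4, rose by 0.31. In control, BMP6, the main iron-sensing ligand upstream of hepcidin, fell by 1.32 and NEO1, a partner of HJV, rose by 0.91. BMP2 rose by 0.81 and ERFE, an erythroid suppressor of hepcidin, fell by 0.42. All 7 were called in the same direction in resistant A498 minus 786-O. Against A498, PCBP2 (0.03, adjusted p = 0.576) and BMP6 (−0.14, adjusted p = 0.0578) were not called in resistant A498, and the other 5 were called in that direction. Of the export genes, none of the 3 tested (CP, FLVCR1 and HEPHL1) was called in resistant 786-O minus 786-O. In resistant A498 minus 786-O the ferroxidase gene CP fell (−0.50) and the haem exporter gene FLVCR1 rose (0.37), while HEPHL1 was not called. All 3 were called in resistant A498 minus A498, CP at −1.51, FLVCR1 at 0.21 and HEPHL1 lower, from 0.666 CPM in A498 to 0 counts in resistant A498. HEPHL1 passed the filter on low counts only through A498, so its call carries no support.

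Other transcripts with an iron-responsive element included EPAS1, CDC42BPA, CDC14A and ALAS2. EPAS1 (HIF-2α) had 1 match in its 5′ untranslated region and is printed here.
EPAS1, chr2:46297479-46297508, plus strand: tacaatcctcggCAGTGTcctgagactgta
EPAS1 stood at 161 ± 4.52 CPM in 786-O against 202 ± 33.2 CPM in resistant 786-O (SD, n = 3). A498 had 160 ± 2.75 CPM, against 237 ± 11.1 CPM for resistant A498. It rose by 0.32 in resistant 786-O minus 786-O (SE 0.086, adjusted p = 0.0039) and by 0.57 in resistant A498 minus A498 (SE 0.087, adjusted p = 2.94e-05). In resistant A498 minus 786-O it rose by 0.55 (SE 0.087). The lowest resistant 786-O library, at 164.8 CPM, lay below the highest 786-O library, at 165.1 CPM. CDC42BPA, a kinase in which the pattern had no match, rose by 0.46 in resistant 786-O minus 786-O and by 0.62 in resistant A498 minus 786-O. In resistant A498 minus A498 it was not called (−0.18). CDC14A, a phosphatase with a 3′ match, was at −0.26 in resistant 786-O minus 786-O (adjusted p = 0.0516). It was called lower in resistant A498 minus 786-O (−0.41) and was not called in resistant A498 minus A498 (0.17).

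**Figure D4:**
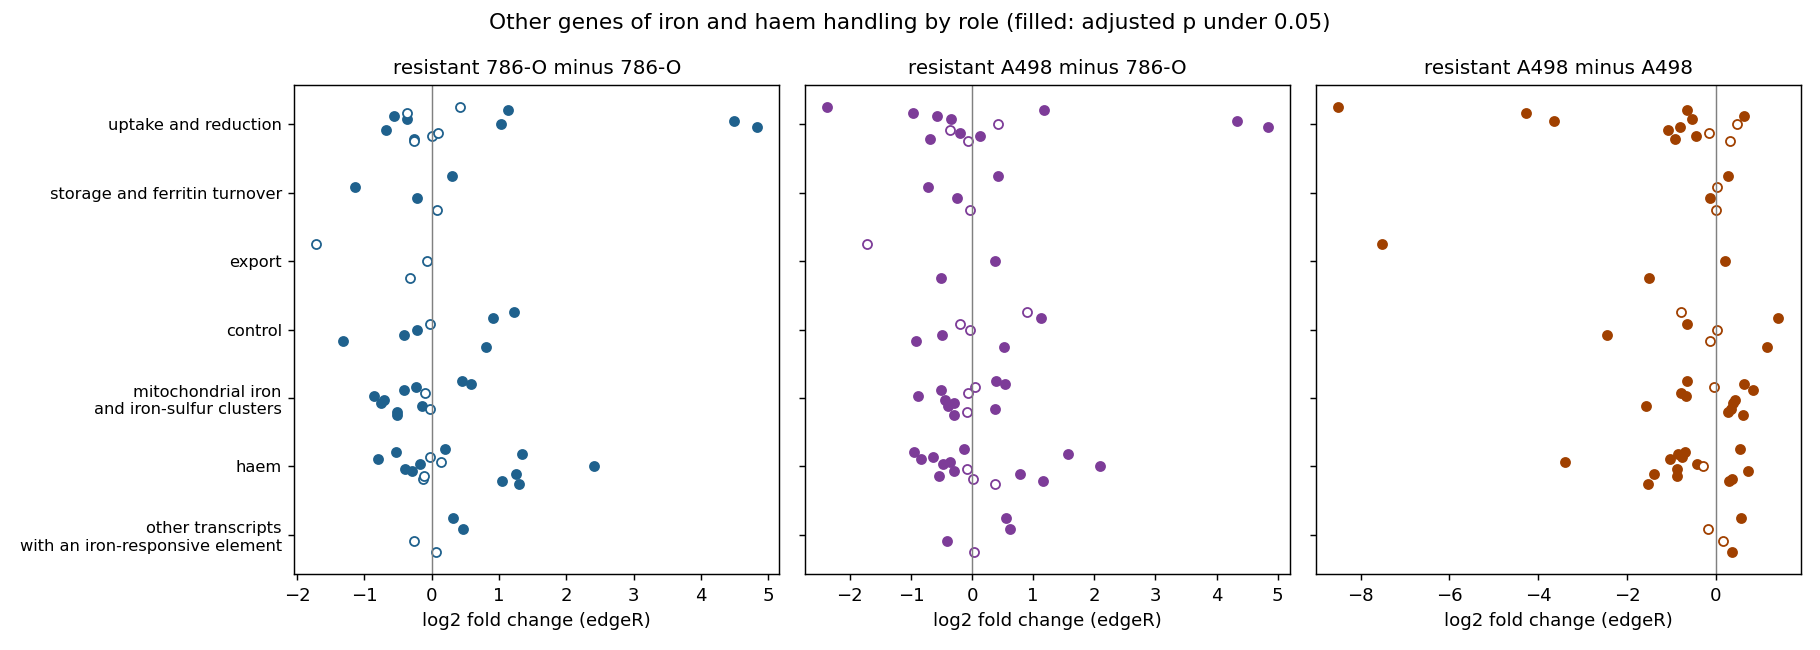
Log2 fold change of the 58 tested genes of the wider iron and haem list, by role, in 3 comparisons with separate axes, filled where the adjusted p was under 0.05. The mitochondrial genes lie mostly below 0 in resistant 786-O minus 786-O (8 of 12 fell, beside 33.5% of all tested genes) and mostly above 0 in resistant A498 minus A498 (7 of 12 rose, beside 36.3%), and the points furthest from 0 belong to genes with few counts in 1 of the groups.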

How the data were processed

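The authors deposited 1 matrix of raw read counts per gene, and no other unit was used. Per their methods and the labels, libraries were made with a stranded poly(A) kit, and reads were converted with bcl2fastq 2.19.0, trimmed with Trimmomatic 0.36.6, aligned to GRCh38/hg38 with HISAT2 2.1.0 and counted over exons of GENCODE 33 with featureCounts 1.6.3. The stated strand setting and the kit's orientation could not be reconciled from the text, but FTH1 and FTL, among the most abundant transcripts, were counted at 1520 to 3116 CPM in every library, so sense reads were counted. Genes were filtered with filterByExpr (19929 kept), scaled by TMM and tested over all 12 libraries with edgeR 4.0.16 (R 4.3.3), glmQLFit and glmQLFTest, two-sided, with Benjamini-Hochberg adjusted p under 0.05 over all tested genes as a call. SE is the log2 fold change divided by the root of F. Log2 CPM used a prior count of 2 for likeness. The study's own test, a two-sided comparison of the means of 2 groups for each gene of interest that allows unequal variances, stands as an alternative, as does DESeq2 1.42.0. The fit was tested on simulated data first. Sequences came from GENCODE transcripts and RefSeq promoters of the same assembly, where 9 members had a promoter entry. FTH1 was named only. Totals of 20042519 to 47972092 counts set the precision. Intervals of log2 changes come from the edgeR fit and hold the spread between libraries, while exact intervals of count ratios and floors cover counting error only. The members and the wider gene list were chosen with earlier results of these data known. Genes of the wider list were named where a group mean reached 5 CPM and both comparisons with 786-O were called, at most 4 per role by the size of the change in resistant 786-O minus 786-O, with the genes listed for an iron-responsive element always named. Results for a few genes that these rules would name are not reported here.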

Additional observations from a re-analysis of the deposited data

Results flagged for a closer look

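For 7 members the change in the labelled A498 pair (resistant A498 minus A498) differed from that in the 786-O pair (resistant 786-O minus 786-O) by edgeR's quasi-likelihood test of the difference itself, where 68.3% of all tested genes did. Given as the first change minus the second on the log2 scale, the difference was 1.50 for TFRC, −0.91 for FTH1, −0.90 for FTL, 3.37 for SLC40A1, 0.32 for STEAP3, 0.18 for IREB2 and −1.40 for ACO1. The adjusted p ranged from 3.38e-11 (TFRC) to 0.0319 (IREB2), and the SLC40A1 value rests on 2 counts in A498. SLC40A1 passed the filter on low counts only through the resistant libraries, so its call among the 7 carries no support. The IREB2 difference lost its call when library size alone set the scale (0.10, adjusted p = 0.22) and with DESeq2 (0.13, adjusted p = 0.0967). The call was also lost with at least 10 counts asked of every library (adjusted p = 0.214) and with no filter (0.0517). The same held without 786-O replicate 3 (0.0733) or resistant A498 replicate 1 (0.0515). The libraries labelled resistant A498 held HIF1A and A498-only transcripts at the level of the 786-O line, and the part of this in the differences was not tested.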

How the results depend on the processing

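Leaving aside the study's own test and the added size limit, 731 of 785 member results kept their direction and side of the threshold, 37 lost a call, 13 gained one, 3 moved in size (fitted CYBRD1 changes) and 1 reversed, STEAP3 in resistant A498 minus 786-O at 0.0247 when library size alone set the scale. The calls lost most often were SLC11A2 in either labelled pair and STEAP3 in resistant A498 minus 786-O. NCOA4 in resistant A498 minus resistant 786-O and the IREB2 difference between the pairs were also among them. The CYBRD1 changes depend on the prior count, and only the bounds are given. With 3 libraries a group, leaving out 1 at a time gave 6 to 7 called members in resistant 786-O minus 786-O, 8 to 9 in resistant A498 minus A498, 7 in resistant A498 minus 786-O and 3 to 6 in resistant A498 minus resistant 786-O.

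Requiring a log2 change over 1 as well left, for all genes, the 9 members and the 58 wider genes in turn, 4382, 1 and 12 calls in resistant 786-O minus 786-O (13643, 7 and 40 without it), 6137, 2 and 14 in resistant A498 minus A498 (14496, 9 and 46), 3983, 1 and 8 in resistant A498 minus 786-O (12683, 8 and 43), 6360, 3 and 19 in 786-O minus A498 (14793, 7 and 46), 1455, 1 and 1 in resistant A498 minus resistant 786-O (9180, 4 and 28), and 6998, 3 and 23 for the difference between the pairs (13607, 7 and 45).

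The study's per-gene test, unadjusted, called 17 wider genes on CPM in resistant A498 minus resistant 786-O. On raw counts it called 8211 genes and 26 wider genes in resistant 786-O minus 786-O, 6222 genes, 3 members and 15 wider genes in resistant A498 minus A498, 3 members and 30 wider genes in 786-O minus A498, and 46 wider genes in resistant A498 minus resistant 786-O. Raw counts are not scaled to depth, which differed between the groups, and by that construction signs turned. In resistant A498 minus 786-O they became −0.58 for FTH1, −0.46 for FTL, −0.0029 for IREB2 and −0.15 for NCOA4. In resistant A498 minus resistant 786-O they became −0.92 for FTH1, −0.40 for IREB2, −0.76 for NCOA4, −0.80 for SLC11A2 and −0.61 for TFRC, and in 786-O minus A498 0.21 for IREB2.

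Replicate numbers are shared between groups, but only 3 of 18 same-numbered pairs of libraries had deviations correlated over 0.1 (range −0.23 to 0.24), and 3 of 12 libraries correlated best with their own number, so the numbers do not pair the samples. With the replicate block 13497 genes were called in resistant 786-O minus 786-O, 14389 in resistant A498 minus A498 and 12567 in resistant A498 minus 786-O, and among members 1 of 55 results changed, the NCOA4 difference between the pairs (0.16, adjusted p = 0.0406).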
